A study of Mus musculus with 19 samples.

Results

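The alpha- and beta-defensins are 64 protein-coding genes, 22 alpha (Defa) and 42 beta (Defb), out of 54532 gene rows in the deposited tables. They were taken by symbol: every gene named Defa or Defb followed by a number alone. RNA of 19 organs of C57BL/6J mice was sequenced, with 1 library per organ. All animals were labelled as males of 8 weeks on a chow diet, with no treatment and no genetic change, and the title of the series asks which genes are particular to the kidney. The organs were aorta, brown adipose tissue (BAT), bone, brain, colon, eye, heart, intestine, kidney, liver, lung, gastrocnemius muscle, parathyroid, skin, spleen, stomach, testis, thymus and white adipose tissue (WAT, sampled as epididymal fat). The labels do not say which stretch of the intestine was taken, or whether organs came from the same or from pooled animals.

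Defensins are small secreted peptides, rich in cysteine and positive charge, that damage the membranes of microbes. Both families fold around disulfide bonds between 6 cysteines, and the spacing of these cysteines tells alpha from beta. In the mouse, alpha-defensins (cryptdins) are made as inactive precursors by Paneth cells at the base of the small intestinal crypts and are cut to the active form by matrilysin (Mmp7). Mouse neutrophils, unlike human ones, are known to lack them. Beta-defensins are made by epithelia such as skin, airway and kidney tubule, and many of them by the epididymis, where they coat maturing sperm.

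Levels are given as FPKM, the reads of a gene per kilobase of its transcript length and per 1000000 reads assigned to genes. This evens out gene length and library depth but not differences in library composition. Scaling by median of ratios shifted libraries by -0.51 (thymus) to 0.84 (liver, skeletal muscle) on the log2 scale. Libraries held 11135276 (colon) to 17263334 (parathyroid) assigned reads, and 3 reads, the floor used for detection, were 0.174 to 0.269 reads per 1000000. With 1 library per tissue there was no replicate spread and no test between tissues. The 95% intervals beside folds are exact binomial intervals (Clopper-Pearson) on reads and cover counting error only. Enriched in a tissue means that a gene stood at 1 FPKM or more there and, with 0.1 FPKM added to both, at 4 times or more the highest of the other 18 tissues.

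Some libraries did not match their labels in full. The kidney and eye libraries, labelled male, held Xist, the transcript of the inactive X chromosome, at 90.9 and 97.5 FPKM and only 3 reads each of the Y-linked genes. Aorta (22.1 FPKM) and parathyroid (59.7 FPKM) held Xist together with Y-linked reads, and all other libraries had Xist at 0.0683 FPKM or less. The library labelled parathyroid had 5 of 6 thyroid markers at their highest level, with thyroglobulin (Tg) at 57706 FPKM. Aorta held all 6 at 1 FPKM or more, with Tg at 5505 FPKM. Scgb1a1 and Sftpc, both highest in lung, stood at 2337 and 1714 FPKM in thymus and at 281 and 127 in heart. The WAT library held transcripts of the epididymis, given below beside the beta-defensins. In whole organs, fewer cells of a type and less RNA per cell cannot be told apart.

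The cysteine framework that defines the families could be read in the coding sequences. The sequences below run from the first to the last of the 6 cysteine codons, 5′ to 3′, from the GENCODE M21 transcripts on GRCm38, with the cysteine codons (TGT or TGC) in capitals. The first 3 are alpha-defensins: Defa24 and Defa30 had the highest levels, and Defa21 carries a shorter spacing.

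Defa24: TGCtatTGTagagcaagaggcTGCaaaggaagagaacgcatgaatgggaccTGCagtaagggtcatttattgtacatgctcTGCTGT

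Defa30: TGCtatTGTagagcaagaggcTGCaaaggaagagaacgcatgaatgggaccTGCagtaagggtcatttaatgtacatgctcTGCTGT

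Defa21: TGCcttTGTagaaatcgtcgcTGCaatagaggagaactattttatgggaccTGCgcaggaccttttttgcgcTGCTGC

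The next 5 are beta-defensins. Their highest levels were in WAT (Defb28 and Defb22), testis (Defb19), skin (Defb6) and kidney (Defb1).

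Defb28: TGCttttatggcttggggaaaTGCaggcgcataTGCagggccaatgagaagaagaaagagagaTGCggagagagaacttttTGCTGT

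Defb22: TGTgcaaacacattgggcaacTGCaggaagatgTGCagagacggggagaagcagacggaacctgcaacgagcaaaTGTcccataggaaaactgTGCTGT

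Defb19: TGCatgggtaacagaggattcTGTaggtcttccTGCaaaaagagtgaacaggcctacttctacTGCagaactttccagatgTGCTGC

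Defb6: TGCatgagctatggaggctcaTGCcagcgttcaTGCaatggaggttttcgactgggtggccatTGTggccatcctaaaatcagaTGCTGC

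Defb1: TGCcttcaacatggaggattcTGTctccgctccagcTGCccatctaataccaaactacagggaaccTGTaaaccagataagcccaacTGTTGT

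In these runs the first 2 cysteine codons are 1 codon apart in the alpha-defensins and 6 codons apart in the beta-defensins shown. The alpha spacing was found in 21 of 22 alpha-defensins and in 0 of 42 beta-defensins, and the beta spacing in 38 beta-defensins and in 0 alpha-defensins. Among the 21, the gap before the last cysteine pair was 9 codons in 14, 6 codons in 6 (Defa2, Defa20, Defa21, Defa22, Defa32 and Defa33) and 10 codons in 1 (Defa25). Defa29 had 11 cysteine codons in a longer reading frame of 116 codons and held neither spacing. Neither spacing was found in Defb8, which has 5 cysteine codons, or in Defb33 (7), Defb46 (6) and Defb50 (6). These outcomes depend on the ranges of gaps that were allowed. Defb5, among the 38, has 7 cysteine codons, and its run begins with a pair of them. The Defa24 and Defa30 runs differed at 1 of 87 bases, T70A, counted from the first base of the run with the Defa24 base first. Coding sequences were 92 to 116 codons long (median 93) in the alpha and 57 to 186 codons (median 72) in the beta family. Defb22, Defb23 and Defb26 were the long ones, with 120, 112 and 128 codons after the last cysteine, against at most 43 in any other member.

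Most defensins were expressed mainly in 1 tissue. Of the 64 genes, 55 reached 1 FPKM in at least 1 tissue (85.9%, where 83.9% of the 22046 protein-coding genes did), and 7 stayed under 3 reads in every tissue (10.9%, the same as the 10.9% of protein-coding genes). Enrichment in 1 tissue was found for 50 of 64 (78.1%), against 18.8% of protein-coding genes. The index of tissue specificity tau, which runs from 0 (even) to 1 (a single tissue), was 0.9 or more in 53 of the 55 expressed members, against 17.7% of expressed protein-coding genes. Its median was 0.999 in the alpha and 0.975 in the beta family, and 0.505 in protein-coding genes. The 2 expressed members under 0.9 were Defb1 (0.83) and Defb25 (0.856).

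**Figure D1:**
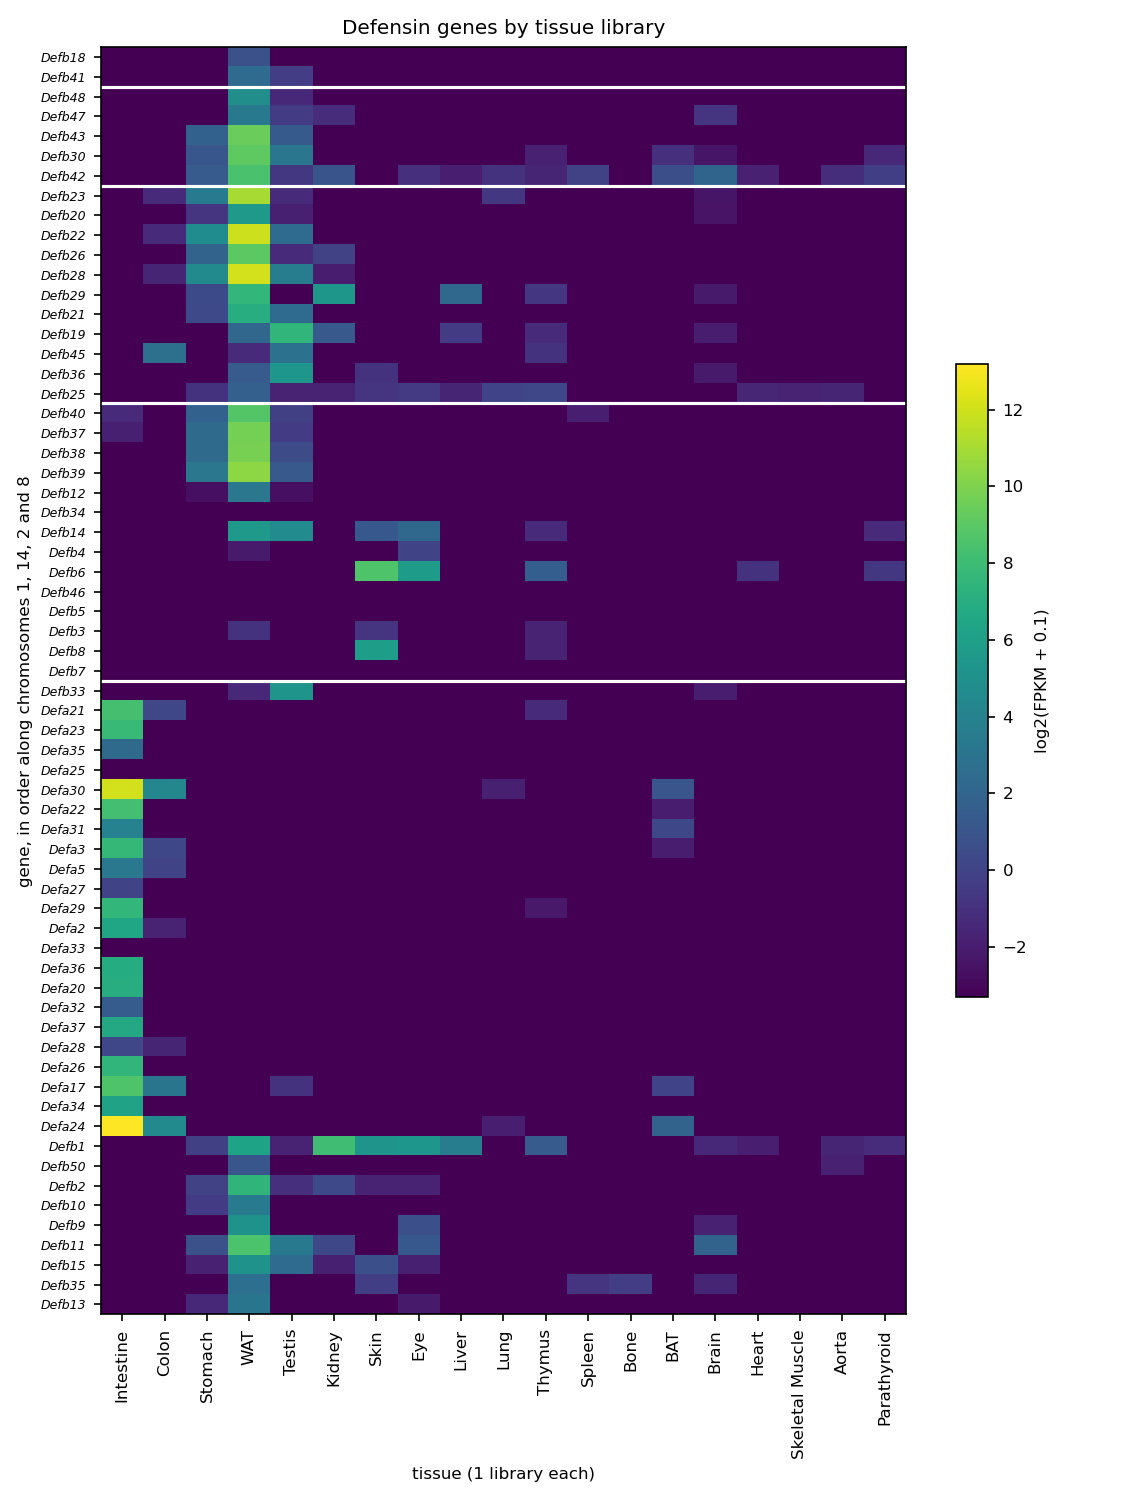
Levels of the 64 defensins (rows, in order along the chromosomes, white lines between gene clusters) in 19 tissue libraries (columns), as log2(FPKM + 0.1). The alpha-defensins fill the intestine column and most beta-defensins the WAT column, with the smaller groups of testis, skin and kidney outside them.

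The alpha-defensins were genes of the intestine. There, 19 of 22 stood at 1 FPKM or more, a level that 57.1% of protein-coding genes reached, and 18 were enriched, against 0.608% of protein-coding genes. These 18 made up 13.4% of the 134 protein-coding genes enriched in intestine. Summed, the family reached 16179 FPKM and took 110021 reads, 0.668% of the intestine library. Defa24 and Defa30 held 85% of those reads.

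Defa24 stood at 9393 FPKM in intestine, 24.0 in colon, 3.72 in BAT and 0.16 (1 read) in lung, with no reads in the other 15 tissues. Defa30 followed with 4380 FPKM in intestine, 20.1 in colon, 1.96 in BAT and 0.168 in lung. For both, intestine lay far above colon, by 391-fold (325 to 475) for Defa24 and 218-fold (177 to 272) for Defa30. The next, Defa17, stood at 410 FPKM in intestine and 8.37 in colon, 49-fold lower (35.5 to 69.8). Its share left in colon, 2.04% of the intestine level, was larger than that of Defa24 (0.256%) and Defa30 (0.459%).

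A group of 9 further genes lay between 101 and 325 FPKM in intestine. In falling order they were Defa21 (325), Defa22 (313), Defa23 (231), Defa3 (205), Defa29 (194), Defa26 (190), Defa20 (123), Defa36 (119) and Defa37 (101). Defa2 (85.3), Defa34 (73.2) and Defa31 (16.1) lay under 100 FPKM. Outside intestine these 12 had at most 7 reads in any library. Defa23, Defa26, Defa20, Defa36, Defa37 and Defa34 had reads in no other tissue. Against a floor of 3 reads in the aorta library, they were at least 136-fold (Defa34) to at least 469-fold (Defa23) higher in intestine. The bound is lower against libraries with fewer assigned reads than aorta, such as colon. At the low end, Defa5 stood at 9.69 FPKM, Defa35 at 5.03 and Defa32 at 2.71. The level of 1 FPKM fell between Defa28 (1.06 FPKM, 7 reads) and Defa27 (0.931 FPKM, 5 reads). Defa25 and Defa33 had no reads assigned in any library. Of their 50-base windows, 74.8% (Defa25) and 100% (Defa33) occur in other genes, so the lack of reads sets no sure limit.

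**Figure D2:**
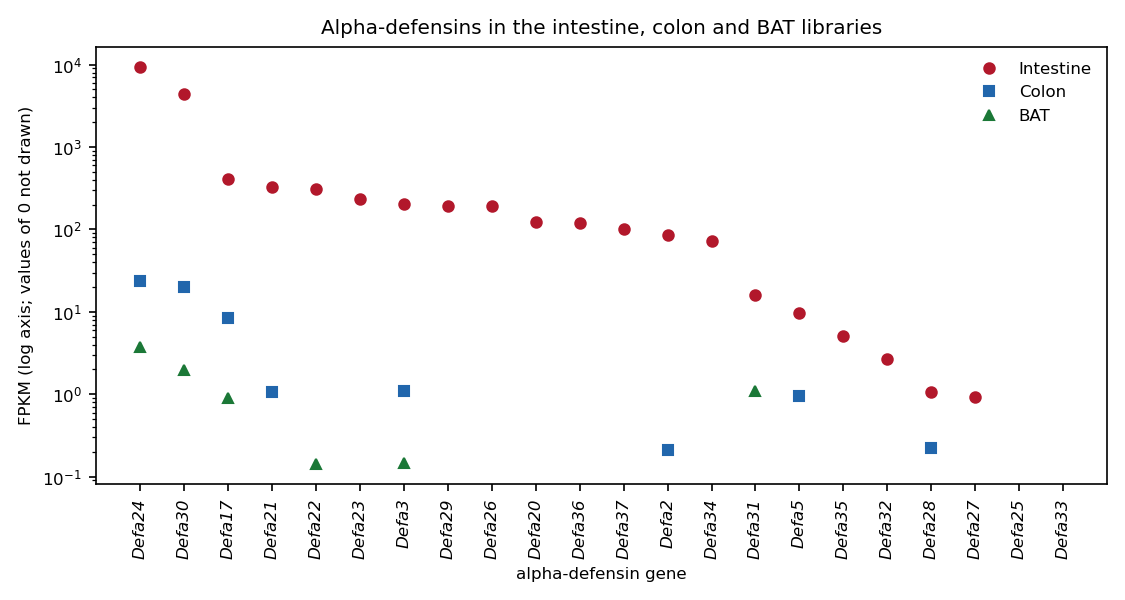
Level (FPKM, log axis) of each alpha-defensin in the intestine, colon and BAT libraries, genes ordered by their intestine level. Defa24 and Defa30 stand above 1000 FPKM, and the colon points lie 10-fold or more below the intestine points of the same gene except for Defa28, which had 1 read in colon.

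Sequence shared within the family limits how far these single levels can be read. All 22 alpha-defensins shared windows of 50 bases with another annotated gene, over a median 88% of their windows, and 19 shared more than 50%. For 6 of them (Defa2, Defa20, Defa31, Defa32, Defa33 and Defa37) every window was shared. Every window of Defa31 occurs in Defa23, and every window of Defa37 in Defa36. Defa24 (28.1%), Defa26 (40.2%), Defa29 (43.4%) and Defa30 (52.4%) shared least, and with windows of 100 bases Defa24 shared 0% and Defa30 0.334%. The 6 wholly shared genes had 2249 intestine reads assigned to them. How the authors counted reads that match several genes is not given in the sources used here. The order among the alpha-defensins other than Defa24 and Defa30 is therefore uncertain. So are the counts of members at 1 FPKM or more and enriched in intestine, and the effect on the family's sum was not tested. By contrast 33 of 42 beta-defensins shared no window of 50 bases, and the highest share was 20.7% (Defb2).

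**Figure D3:**
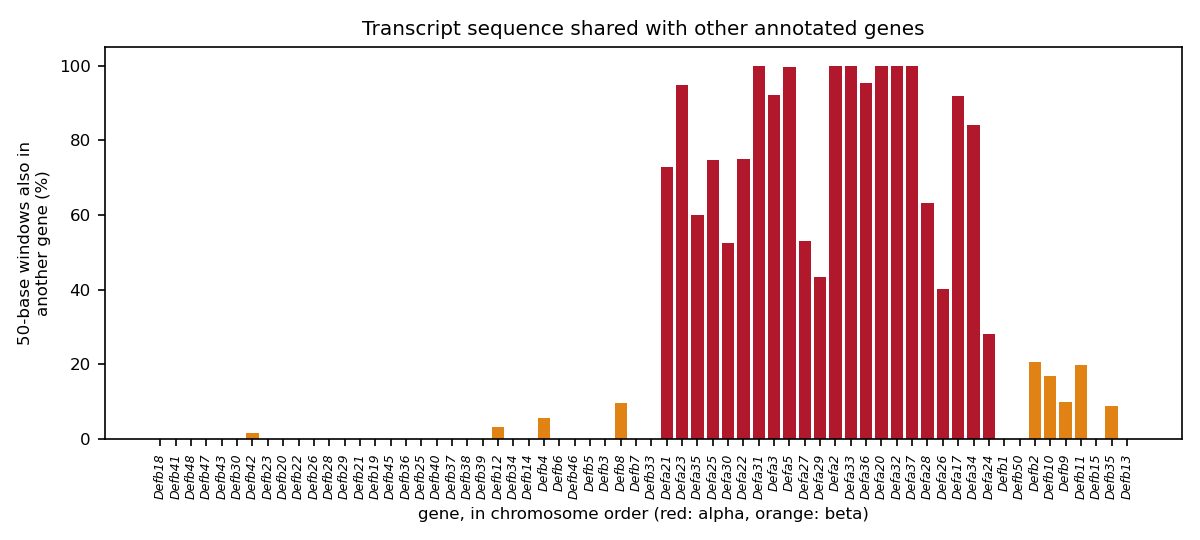
Percent of all 50-base windows of each defensin's annotated transcripts that also occur in another annotated gene (bars from 0), in chromosome order. The 22 alpha-defensins (red) range from 28.1% to 100% and the 42 beta-defensins (orange) from 0% to 20.7%.

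Paneth cell markers were high in the same library. Of 10 genes listed as such, 6 had their highest level in intestine: lysozyme 1 (Lyz1, 2842 FPKM), the lectin Itln1 (1805), Guca2b (1175), Reg3g (469), the pentraxin Mptx2 (251) and Mmp7 (108). Guca2b was not confined to intestine, with 491 FPKM in kidney. Mmp7, which cuts the mouse precursors, had 3.55 FPKM in the next tissue, WAT. The ribonuclease Ang4 was higher in colon (696 FPKM) than in intestine (472), as was Pla2g2a (45.9 and 23.2 FPKM). Sox9 was highest in parathyroid and Clps, a pancreatic cofactor of lipase, in stomach. A related gene outside the naming rule, AY761184, stood at 2280 FPKM in intestine and 4.82 in colon.

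Outside intestine and colon the alpha-defensins had few reads or none. No alpha-defensin read was found in 13 of 19 libraries. In colon the family had 254 reads, and 5 of its genes reached 1 FPKM (58.4% of protein-coding genes did). The 15 alpha-defensins at 10 FPKM or more in intestine summed in colon to 0.339% of their intestine level. BAT held 54 reads, 26 of Defa24, 13 of Defa30, 7 of Defa31, 6 of Defa17 and 1 each of Defa3 and Defa22, which summed to 0.0494% of the intestine level. All 10 Paneth markers summed to 4.84 FPKM in BAT and to 7286 in intestine, and 4 of them were at 0 in BAT. Testis (3 reads), thymus (3) and lung (2) had the rest. Bone, with all 10 neutrophil granule genes at their highest level, had 0 alpha-defensin reads, which allows up to 3 reads. Among these granule genes, elastase (Elane) stood at 720 FPKM, myeloperoxidase (Mpo) at 1251 and the cathelicidin Camp at 2990 in bone.

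The beta-defensins were genes above all of the WAT library. In it 32 of 42 stood at 1 FPKM or more, where 61% of protein-coding genes did, 29 had their highest level there, and 27 were enriched, against 0.676% of protein-coding genes. The 27 were 18.1% of the 149 protein-coding genes enriched in WAT. Their family summed to 17210 FPKM and 139184 reads, 0.825% of the library, so that beta-defensins in WAT took a share of reads of the same order as alpha-defensins in intestine.

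Of the 29 genes, 4 stood above 1000 FPKM, 11 between 100 and 1000, 7 between 10 and 100, and 7 under 10. Defb28 was the highest at 4331 FPKM in WAT, with 23.6 in stomach, 12.8 in testis and a single read each in colon and kidney. Defb22, known as a sperm-coating protein of the mouse epididymis, stood at 3927 FPKM in WAT, 26.1 in stomach and 5.46 in testis. Defb23 reached 2107 FPKM in WAT and 10.5 in stomach, and was at 0.536 or less in every other library. All 3 lie in the cluster on chromosome 2, and WAT exceeded the next tissue by 184-fold (156 to 217), 151-fold (133 to 171) and 200-fold (166 to 245) in that order. Defb39, from chromosome 8, was the fourth with 1350 FPKM in WAT, 9.42 in stomach and 2.34 in testis.

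Between 100 and 1000 FPKM in WAT were Defb38 (881), Defb37 (844), Defb43 (693), Defb30 (551), Defb26 (522), Defb40 (436), Defb11 (370), Defb42 (356), Defb29 (199), Defb2 (182) and Defb21 (125). The second tissue was stomach for Defb37, Defb38, Defb40, Defb26 and Defb43 (3.37 to 5.24 FPKM), and testis for Defb30 (8.81), Defb11 (10.1) and Defb21 (5.4). Defb42 was the most widely detected of them, with 3.95 FPKM in brain, 2.57 in stomach, 1.83 in kidney and 1.47 in BAT. Defb11 also had 3.72 FPKM in brain and 2.27 in eye. At 10 to 100 FPKM were Defb14 (48.2), Defb20 (47.6), Defb15 (34.9), Defb9 (34.8), Defb48 (28.4), Defb10 (10.9) and Defb47 (10.2). Lower still were Defb12 (9.16), Defb13 (8.65), Defb35 (6.44), Defb41 (5.36), Defb25 (3.24), Defb50 (2.07) and Defb18 (1.61). Of the 29, 2 were not enriched: Defb14, whose level in testis was 24.6 FPKM, and Defb25, which had 1.02 in thymus.

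**Figure D4:**
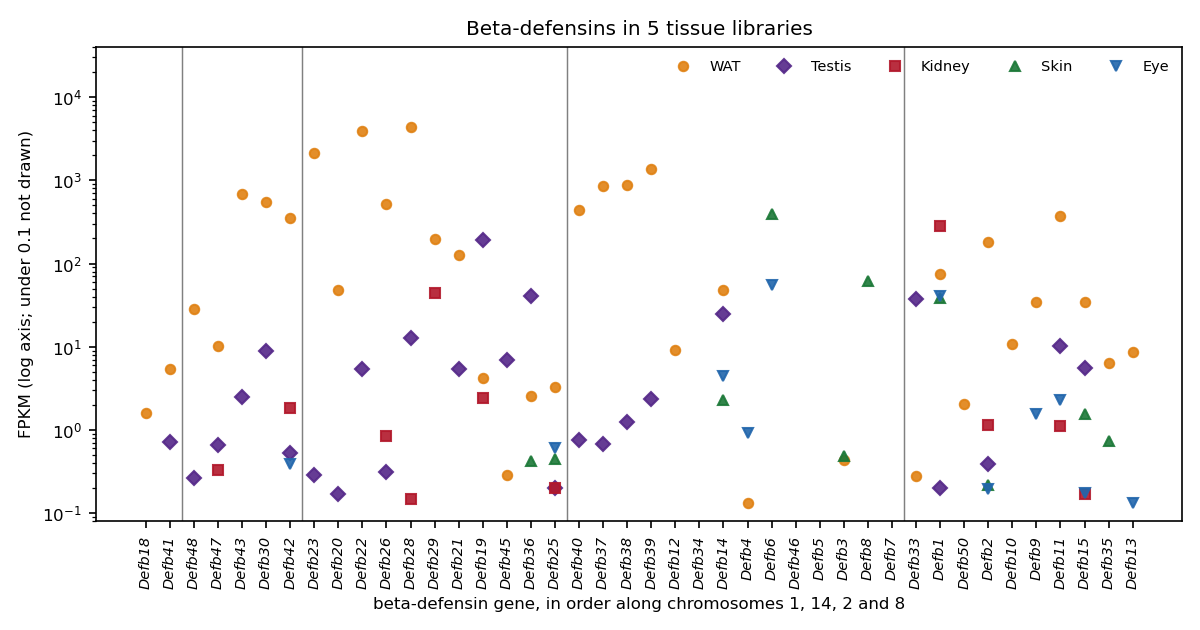
Level (FPKM, log axis) of the 42 beta-defensins in the WAT, testis, kidney, skin and eye libraries, genes in chromosome order with lines between clusters. WAT holds the highest point for 29 genes, testis for Defb19, Defb36, Defb33 and Defb45, skin for Defb6, Defb8 and Defb3, kidney for Defb1 and eye for Defb4.

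The epididymis lies against the fat pad that was sampled, and its marker genes were high beside the beta-defensins in the WAT library. Of 15 genes of the epididymal epithelium, 10 had their highest level in WAT and 11 stood at 1 FPKM or more, and they summed to 20655 FPKM there and to 337 or less in every other library. Crisp1, a secreted sperm-binding protein, stood at 11117 FPKM, the retinoic acid carrier Lcn5 at 3436, Spint4 at 3145, Adam7 at 1753 and Rnase9 at 1175. The other 10 listed genes stood at 13.7 FPKM (Spag11a) or less in the same library, among them Lcn8 at 4.83, the glutathione peroxidase Gpx5 at 3.19, Lcn9 at 1.13 and Rnase10 at 0.978. None of the 15 was at 0 in WAT. Male germ cell markers summed to 323 FPKM in WAT, with protamine 2 (Prm2) at 224, and to 22335 in testis. What part these markers' cells had in the beta-defensin level of the WAT library was not tested.

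The stomach library carried the WAT pattern at a low level. It had 791 beta-defensin reads, and the 14 beta-defensins at 1 FPKM or more there (55.7% of protein-coding genes reached it) were all among the 15 at 100 FPKM or more in WAT. All 15 had reads in stomach, at 0.378% to 0.937% of their WAT level (median 0.61%). The 5 epididymal markers over the same level in WAT had 0.464% to 0.697% (median 0.641%) in stomach, with Crisp1 at 77.5 FPKM. In testis, by contrast, the same 15 genes ranged from 0% to 4.32% of the WAT level (median 0.174%), with Defb29 at 0 and Defb21 the highest. Whether the stomach values are transcripts made in the stomach was not tested. Without the stomach library, the count of beta-defensins enriched in WAT was again 27.

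**Figure D5:**
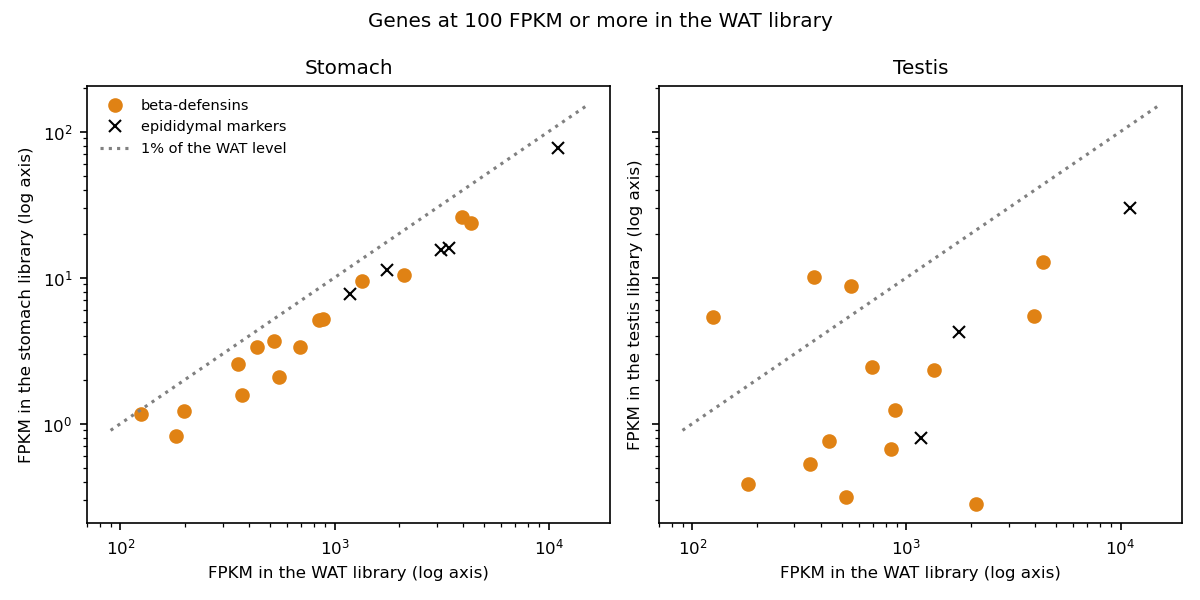
Level in stomach (left) and testis (right) against the level in WAT, FPKM on log axes, for the 15 beta-defensins (orange) and 5 epididymal markers (crosses) at 100 FPKM or more in WAT; values of 0 are not drawn, and the dotted line is 1% of the WAT level. In stomach all 20 genes lie just below the line (0.378% to 0.937%), and in testis the beta-defensins spread from 0% to 4.32%.

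In testis, 14 beta-defensins stood at 1 FPKM or more (61.5% of protein-coding genes), and 10 of these were higher in WAT. Enriched in testis were Defb19, Defb36 and Defb33, 3 of 42 or 7.14%, a share near the 8.24% of protein-coding genes. Without the WAT library the count was 6. Defb19 stood at 190 FPKM in testis, 4.21 in WAT, 2.40 in kidney and 0.653 in liver, 45.2-fold above WAT (31.1 to 68.3). Defb36 had 40.6 FPKM in testis and 2.53 in WAT, a 16-fold difference (10.2 to 26.6). Defb33 had 37.9 FPKM in testis and only 2 reads in WAT, a ratio of 136 with an interval from 37.2 to 1125. Defb45 was highest in testis at 6.96 FPKM but had 6.69 in colon, and these levels did not differ beyond counting error (ratio 1.04, 0.65 to 1.69). Germ cell markers were highest in testis for 8 of 8 genes, and Sertoli cell markers for 3 of 8. Defb14, an inducible epithelial defensin, stood at 48.2 FPKM in WAT, 24.6 in testis, 4.41 in eye and 2.27 in skin.

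In kidney the family was almost a single gene. Defb1, made constitutively by the epithelium of the distal nephron, stood at 286 FPKM (4216 reads) and held 91.2% of the beta-defensin reads there. Next came WAT at 75.5 FPKM, eye at 41.0, skin at 38.0, liver at 13 and thymus at 2.62. The other 13 libraries stood at 0.788 FPKM (stomach) or less. Kidney exceeded WAT by 3.79-fold (3.55 to 4.06), which left Defb1 short of the enrichment rule (0 defensins and 0.63% of protein-coding genes met it in kidney). With median-of-ratios scaling the ratio was 4.5, past the rule. WAT exceeded eye by 1.84-fold (1.67 to 2.04). Eye and skin did not differ beyond counting error (1.08-fold, 0.955 to 1.22), and skin lay above liver by 2.93-fold (2.46 to 3.5). Without the WAT library the kidney stood 6.97-fold above the next tissue. The authors' mean over 3 kidney libraries was 276 FPKM, and the mean of the other 2 that follows from it was 271.

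A total of 6 beta-defensins reached 1 FPKM in kidney, where 56.3% of protein-coding genes did. Defb29 was the second with 43.7 FPKM, and 51.5 over the other 2 kidney libraries. Its level in WAT, 199 FPKM, was 4.56-fold higher than in kidney (4.05 to 5.14), and kidney lay 9.80-fold above liver (6.81 to 14.6), with stomach next at 1.22 FPKM. Defb19 (2.40), Defb42 (1.83), Defb2 (1.16) and Defb11 (1.12) were the others. Of 8 distal nephron markers, 7 were highest in kidney, among them uromodulin (Umod) at 2297 FPKM and the sodium chloride transporter Slc12a3 at 1012. In liver, the library with the third level of Defb29, Umod stood at 141 FPKM and the 8 markers summed to 204 FPKM, against 4225 in kidney, and 0 of the 8 were at 0. Their part in the liver values of Defb1 and Defb29 was not tested. Likeness of level to Defb1 over the 19 tissues was ranked for 12524 genes at 1 FPKM or more in kidney. Defensins and predicted models (Gm or Rik names) were left out. The 5 nearest were Vwa2 (Pearson r = 0.90), the transcription factor Tfap2b (0.89), the glycine cleavage enzyme Gldc (0.87), Emx2os (0.87) and Bdh2 (0.82). Vwa2 was highest in skin (7.96 FPKM, 5.44 in kidney). Tfap2b (70.1 FPKM, 29.9 in kidney) and Emx2os (3.55 and 1.87) were highest in WAT. Gldc (111 FPKM) and Bdh2 (119) were highest in kidney. These correlations rest on 1 library per tissue and describe these libraries.

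In skin, the highest beta-defensins were Defb6, Defb8 and Defb1. Of its 5 beta-defensins at 1 FPKM or more (61.1% of protein-coding genes), Defb6 and Defb8 were enriched, against 0.712% of protein-coding genes. Defb6 stood at 396 FPKM in skin, 54.6 in eye and 2.98 in thymus, with 0.538 or less elsewhere. Skin was 7.25-fold above eye (6.41 to 8.22). Defb8 had 61.4 FPKM (266 reads) in skin and 1 read in thymus, a ratio of 293 with an interval from 52.2 to 11622. Defb1 (38.0), Defb14 (2.27) and Defb15 (1.54) were the other 3. The eye library held Defb6 at 54.6 FPKM, Defb1 at 41.0, Defb14 at 4.41, Defb11 at 2.27 and Defb9 at 1.55, its 5 members at 1 FPKM or more (66.8% of protein-coding genes). Defb4, known from the airway and oesophagus of the mouse, had its highest level in eye at 0.925 FPKM, just under 1. Keratinocyte markers were at 1 FPKM or more in both libraries for 10 of 10 genes and summed to 10936 FPKM in skin and 2927 in eye, with keratin 5 (Krt5) at 2153 and 1300. Their part in the eye values was not tested.

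Lung, where beta-defensins are known from the airway, had 14 beta-defensin reads and 0 genes at 1 FPKM or more (61.2% of protein-coding genes). Its leading members were Defb25 (0.913 FPKM), Defb23 (0.536) and Defb42 (0.43). Of 10 genes listed for airway and oesophagus epithelium, 5 were highest in lung: the club cell protein Scgb1a1 (39398 FPKM), Sftpc (17496), Scgb3a2 (817), Bpifa1 (241) and Scgb3a1 (236). Krt4 and Krt13 were highest in eye, Foxj1 and Dynlrb2 in testis and Muc5b in WAT. Undetected anywhere were Defb5, Defb7, Defb34 and Defb46, and Defb3 had at most 2 reads in a library.

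Neighbouring genes often had their highest level in the same tissue. Coordinates are those of the deposited table, which match GRCm38. On chromosome 1 (18236473 to 18265138) both genes, Defb18 and Defb41, were enriched in WAT, and on chromosome 14 (62977524 to 63058149) all 5 were. The chromosome 2 cluster (152459055 to 152623053) held 11 genes and 72.4% of the beta-defensin reads of the WAT library. Its first 7 genes in chromosome order (Defb23, Defb20, Defb22, Defb26, Defb28, Defb29 and Defb21) were all enriched in WAT, and the next 3 (Defb19, Defb45 and Defb36) were highest in testis. Defb21 and Defb19, which lie next to each other, had 125 and 4.21 FPKM in WAT and 5.4 and 190 in testis.

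On chromosome 8 the first cluster (18974940 to 19497775) held 14 genes and 13.1% of the beta-defensin reads of the WAT library. Defb40, Defb37, Defb38, Defb39 and Defb12 at its start were enriched in WAT. Beyond them, Defb14 was highest in WAT too, and Defb6 and Defb8 were enriched in skin. Defb4 (7 reads in eye, 1 in WAT) and Defb3 (2 reads each in skin and WAT) had too few reads to place. All 4 beta-defensins without a read in any library lie in this cluster. The second cluster on chromosome 8 holds the 22 alpha-defensins (21025545 to 21735471) flanked by Defb33 on one side and 9 beta-defensins on the other. Defb1, the kidney gene, starts 41.1 kb after the end of Defa24, the leading gene of intestine, and had no intestine read. The 8 beta-defensins after Defb1 (Defb50, Defb2, Defb10, Defb9, Defb11, Defb15, Defb35 and Defb13) were all enriched in WAT, from 2.07 FPKM (Defb50) to 370 (Defb11).

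The start of transcription was looked at for the members with a RefSeq promoter (GRCm38.p6, 250 bases before to 50 bases after the start) that began within 200 bases of the deposited gene start, 39 of 64. The 200 bases upstream of the start are shown for 3 alpha-defensins of differing level and for Defb28, the leading beta-defensin. The positions are chr8:21025345-21025544 (Defa21), chr8:21054840-21055039 (Defa23), chr8:21134450-21134649 (Defa30) and chr2:152518055-152518254 (Defb28), all on the plus strand. Capitals mark TATAAA, the core of a TATA box, and CTTTGA or its reverse complement TCAAAG, the core bound by TCF/LEF factors of the Wnt pathway, on which Paneth cells depend.

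Defa21: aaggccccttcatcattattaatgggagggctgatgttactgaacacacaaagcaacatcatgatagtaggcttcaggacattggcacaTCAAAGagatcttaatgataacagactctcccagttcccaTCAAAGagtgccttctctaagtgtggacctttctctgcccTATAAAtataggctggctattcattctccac

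Defa23: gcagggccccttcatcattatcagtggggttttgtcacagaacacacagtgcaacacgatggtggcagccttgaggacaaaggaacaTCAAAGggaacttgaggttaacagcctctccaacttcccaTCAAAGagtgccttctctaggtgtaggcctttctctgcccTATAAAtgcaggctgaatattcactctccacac

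Defa30: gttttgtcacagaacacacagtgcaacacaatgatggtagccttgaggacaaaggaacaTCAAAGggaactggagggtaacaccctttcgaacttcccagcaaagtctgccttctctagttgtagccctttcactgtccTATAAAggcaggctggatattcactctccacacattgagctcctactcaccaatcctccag

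Defb28: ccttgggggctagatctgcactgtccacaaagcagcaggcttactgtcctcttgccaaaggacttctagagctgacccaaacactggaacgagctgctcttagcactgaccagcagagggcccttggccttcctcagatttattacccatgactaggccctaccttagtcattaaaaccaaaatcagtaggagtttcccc

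In the alpha-defensins shown, TATAAA begins at base -31 (Defa21), -33 (Defa23) or -61 (Defa30) from the start, with a TCAAAG upstream of it. The 200 bases of Defb28 hold neither. Over whole promoter windows, searched on both strands, TATAAA (reverse TTTATA) was found in 11 of 12 alpha-defensins (91.7%), 4 of 27 beta-defensins (14.8%) and 13.6% of all 32851 promoters. CTTTGA or TCAAAG was found in 12 of 12 alpha-defensins, in 8 of them at least 2 times, in 8 of 27 beta-defensins (29.6%) and in 16% of all promoters. TGTTCT (reverse AGAACA), a half-site of the androgen receptor, was found in 16 of 27 beta-defensins (59.3%). These were 11 of the 19 enriched in WAT (57.9%) and 5 of the 8 not enriched there (62.5%). TGTTCT was also found in 6 of 12 alpha-defensins (50%) and in 19% of all promoters. No motif contains another, although their ends can overlap. The alpha-defensin promoters are copies to a large degree, with 4 identical pairs (Defa36 and Defa37, Defa23 and Defa31, Defa21 and Defa22, Defa2 and Defa20), so the 12 are not independent. A match is a stretch of letters and does not show binding.

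Other antimicrobial proteins were described beside the defensins. Of 15 in the list, 4 each were highest in colon and bone, 3 in intestine, 2 in lung and 1 each in spleen and testis. The C-type lectins Reg3b (3313 FPKM) and Reg3g (469) were highest in intestine, together with Lyz1. Lypd8 (9702 FPKM), a protein that binds flagella, and Retnlb (671) were highest in colon, where the alpha-defensins were low. Of 12 genes of defensin processing, release and reception, intestine had 2 at their highest level, Mmp7 and the convertase Pcsk5 (25.6 FPKM). Ccr6, a chemokine receptor that beta-defensins can bind, was highest in spleen at 45.3 FPKM and had 3.49 in testis.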

How the data were processed

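RNA of 19 mouse tissues was measured, 1 sample per tissue, grouped by title. RNA was isolated with Trizol and treated with DNase, per the labels' protocols. The authors deposited FPKM for 13 tissues and raw read counts for 6. The submitters' processing notes list DESeq2, with neither version nor role. The library kit, strand, read length, genome build, aligner and counter are not stated in the sources used here.

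The deposited FPKM was taken to be a gene's reads over its length and over all assigned reads of the library. For 36940 genes with reads the length was the mean annotated transcript length (GENCODE M21, rounded down). For 1132 it was the common denominator of the gene's values, a choice that makes their reads whole. Whole reads were recovered from it: 100.00% of the values above 0 came out whole, over 54532 gene rows. The tolerance was 0.002 reads, wider in proportion for high read numbers, and the lengths had been accepted by the same tolerance. No count test was run on the recovered reads, since each tissue has 1 library. For the 6 tissues of the deposited count table, FPKM was computed anew by that formula and those lengths. In the authors' group table of FPKM, 12 columns equalled the first table. Its kidney column is a mean over 3 libraries, since 1119 genes stood in the single kidney library at 3 times (within 1e-06) their value in that column, and none higher.

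Enrichment and tau (on log2(FPKM + 1)) were computed in Python 3.11.15 with pandas 2.3.3, and exact binomial (Clopper-Pearson) intervals with scipy 1.17.1. The enrichment rule was tested on simulated data. Members reaching 10 FPKM or enriched in a tissue are given with values, and the remainder mostly by counts. Members, gene lists and rules were chosen with earlier results of these data known. Protein sequences were not used here, so cysteine codons were read from GENCODE coding sequences. The cysteine patterns were matched by their spacing alone. Alternatives covered scaling, level, fold, pseudocount, gene length, source of values, the read floor and single libraries left out.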

Additional observations from a re-analysis of the deposited data

How the results depend on the processing

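Of 88 alternative values of 9 results, 82 stayed within 1.5 times the count, or within the counting interval of the ratio, and kept their direction. Both kidney ratios that left the interval were higher: Defb1 stood 4.5-fold above the next tissue with median-of-ratios scaling and 6.97-fold without the WAT library, where eye takes its place. With 3.79-fold in the report, Defb1 passes the 4-fold rule under these alternatives alone. Defensins under 3 reads everywhere numbered 22 with the 13 tissues of the first table alone, which lack intestine and skin, 12 without the WAT library and 11 when 10 reads were asked for, against 7. Without the WAT library, 6 beta-defensins were enriched in testis, against 3. The added members were Defb14, Defb30 and Defb21, highest in WAT with testis second, which met the rule once WAT was not compared. The counts of alpha-defensins enriched in intestine ran from 17 to 19 and of beta-defensins enriched in WAT from 22 to 28. The alternatives without the stomach or the kidney library were chosen after seeing the data. Median-of-ratios scaling shifted libraries by -0.51 (thymus) to 0.84 (liver, skeletal muscle) on the log2 scale. No paired analysis was possible because each tissue has 1 library. Animals, dissection and library preparation cannot be told apart from tissue, and genes with few reads have wide intervals.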
